A study of Mus musculus with 69 samples.

Results

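The effect of unilateral nephrectomy (UNx, excision of 1 kidney) on gene expression in PT-S1, the S1 segment of the kidney proximal tubule, was compared between 24 h and 72 h after surgery, to see which genes differed from sham early only, late only or at both times. For each gene, the effect at a time was the mean log2(TPM + 1) of UNx animals minus that of sham animals, where TPM, the unit of the tables, is a length-scaled abundance, and the quantity of interest was the 72 h effect minus the 24 h effect. The 2 PT-S1 tables hold 41 of the 69 libraries of the series and share 52404 gene identifiers, of which 11455 averaged 1 TPM or more in each table and were tested. The 24 h sham group held 8 libraries from 3 animals, the 24 h UNx group 9 from 4, the 72 h sham group 12 from 5 and the 72 h UNx group 12 from 5. All 4 groups were wild-type male C57BL/6 mice from Taconic, 7 weeks old at the operation, and the labels name no transgene and no drug. Tubules were dissected by hand and several libraries were made from the tubules of an animal, so the animal was the replicate, and the value given for an animal is its mean over libraries on the log2(TPM + 1) scale, written back as TPM. In bulk tubules, fewer cells of a type and less RNA per cell cannot be told apart.

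The S1 segment receives the glomerular filtrate and takes back most of its glucose, amino acids, phosphate, bicarbonate and filtered protein. It draws its energy mainly from fatty acid oxidation, whose genes are controlled in part by PPAR-alpha, a nuclear receptor that binds DNA with a retinoid X receptor and is switched on by fatty acids. When a kidney is removed, the tubules of the other one enlarge within days, mostly by growth of existing cells and partly by cell division.

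The libraries carried the segment's defining markers. The mean TPM of Slc5a2, the main glucose carrier of the early proximal tubule, lay between 1989 and 2915 in the 4 groups, and that of Slc34a1, the main phosphate carrier, between 6992 and 9082. Single animals varied more, with Slc5a2 at 792.3 TPM in the lowest 24 h UNx animal. The 10 S1/S2 markers summed to 14397 to 19014 TPM in 24 h sham animals and 9921 to 14645 in 24 h UNx, and did not move together. Slc4a4 had 509.4 to 1146 TPM in 24 h sham and 402.3 to 459.2 in 24 h UNx, while the means of Slc22a6 were 356.2 and 791.5. The part of segment composition in the effects was not tested. Markers of other cells ranged from near 0 to clearly measured. The highest animal had 0.11 TPM of the podocyte gene Nphs1, 1.03 of the distal tubule gene Slc12a3, 0.52 of the fibroblast gene Col1a1 and 1.95 of the leukocyte gene Ptprc. In contrast, antigen presentation genes of the leukocyte list reached 337 TPM (Cd74) and 249.6 (H2-Ab1), the endothelial gene Plvap reached 156 and Emcn 55.1, the mural cell gene Acta2 34.4 and Umod, of the thick ascending limb, 24.1. The 9 endothelial markers summed to 82.6 to 189 TPM in 24 h sham animals and 90.8 to 226 in 24 h UNx, and to 126 to 318 in 72 h sham and 61.4 to 266 in 72 h UNx. The 12 fibroblast and mural markers summed to at most 8.51 TPM at 24 h and 14.4 in 72 h sham, but to 37.8 and 60.7 in 72 h UNx animals 1 and 2. The part of these cells in the results was not tested. The summed TPM of the 8 principal cell markers was higher in every 72 h UNx animal (96.3 to 135) than in every 72 h sham animal (71.5 to 79.8), carried by Aqp3 (means of 52.3 and 34.6) and Fxyd4 (58.3 and 39.3), while Aqp2, the gene that defines those cells, did not exceed 1.005 in any animal. The 8 intercalated cell markers went the other way, at 1.94 to 3.12 TPM in 72 h UNx and 3.67 to 24.9 in 72 h sham. Of the 41 libraries, 4 stood apart, with a median correlation to the others of 0.824 to 0.904, against 0.945 to 0.973 for the remaining 37. They were 1 library each of sham animals 1 and 3 at 24 h and of UNx animals 1 and 2 at 72 h. The 2 from 72 h held 9247 and 9632 genes at 1 TPM or more, against 10942 to 12494 in the 37, and their 10 S1/S2 markers summed to 2638 and 2729 TPM, against 19734 and 21121 in the other library of the same animals. Results are therefore given with all libraries and without these 4.

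With all libraries, limma's test with Benjamini-Hochberg adjustment called 0 of 11455 genes for a difference between the effects at 24 h and 72 h (0%), while 381 genes (3.33%) had an unadjusted p under 0.05. At 24 h, 2 genes passed (0.0175%): Fabp1, a fatty acid carrier of the cytosol, rose and Irf2bp2, a transcriptional corepressor, fell. No gene passed at 72 h (0%). Unadjusted, 14.9% of genes were under 0.05 at 24 h and 27.6% at 72 h, most of them lower in UNx: 1.76% were higher and 13.2% lower at 24 h, and 1.41% were higher and 26.2% lower at 72 h. The median effect of all genes was -0.19 at 24 h and -0.29 at 72 h. For that reason a relative effect, the effect minus that median, is given where gene groups are described.

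Without the 4 libraries, 187 of 11443 genes (1.63%) passed the test of the difference, 180 with a higher effect at 72 h and 7 with a lower one. At 24 h, 925 genes passed (8.08%), 43 higher (0.376%) and 882 lower (7.71%), and at 72 h again none did (0%). Leaving out the 4 libraries thus changed whether a difference was called, and so did limma's array weights with all libraries kept (376 of 11455 genes). The scaling changed the split. After median-ratio scaling without the 4 libraries, 14 differences passed (0.122%), 8 higher and 6 lower at 72 h. At 24 h 48 genes passed (0.419%), 33 higher and 15 lower. By the tested classes, in which the effect at 1 time and the difference both pass, 145 genes without the 4 libraries were early only, and none were late only or shared, since none passed at 72 h, against 10 early only after scaling. The low library of 24 h sham animal 3 alone moved the 24 h count from 2 to 67 when it was left out, and that of either 72 h UNx animal to 1. Leaving out 1 animal in turn gave 0 to 16 genes at 24 h, with 0 without sham animal 1 or 2 or UNx animal 1, 2 or 3, 6 without sham animal 3, 16 without UNx animal 4 and 12 without 72 h UNx animal 1.

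Patterns were also counted on values, with no test. An early pattern meant that no UNx animal overlapped a sham animal at 24 h, with a relative effect of at least 1 in size at 24 h and under 0.5 at 72 h. A late pattern was the mirror, and a shared pattern meant no overlap at both times with relative effects of at least 0.5 in the same direction. With all libraries 37 genes were early (0.323%), 17 higher and 20 lower, 7 were late (0.0611%), all higher, and 13 were shared (0.113%), 9 higher and 4 lower. None was separate in opposite directions at the 2 times. Groups do not overlap more easily when they are small: 15.2% of all genes did not overlap at 24 h, with 3 against 4 animals, and 5.64% at 72 h, with 5 against 5. The numbers of early and late genes are therefore not comparable. Without the 4 libraries 41 genes were early, 23 of them the same, 7 were late, 2 of them the same, 3 were shared, 1 of them the same, and 20 were opposite. Just inside the early pattern's limits lay Heca, with relative effects of -1.002 at 24 h and 0.17 at 72 h, and Vnn1, with 1.80 and 0.45, and outside it lay Smad7, with -0.81 and -0.09.

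**Figure D1:**
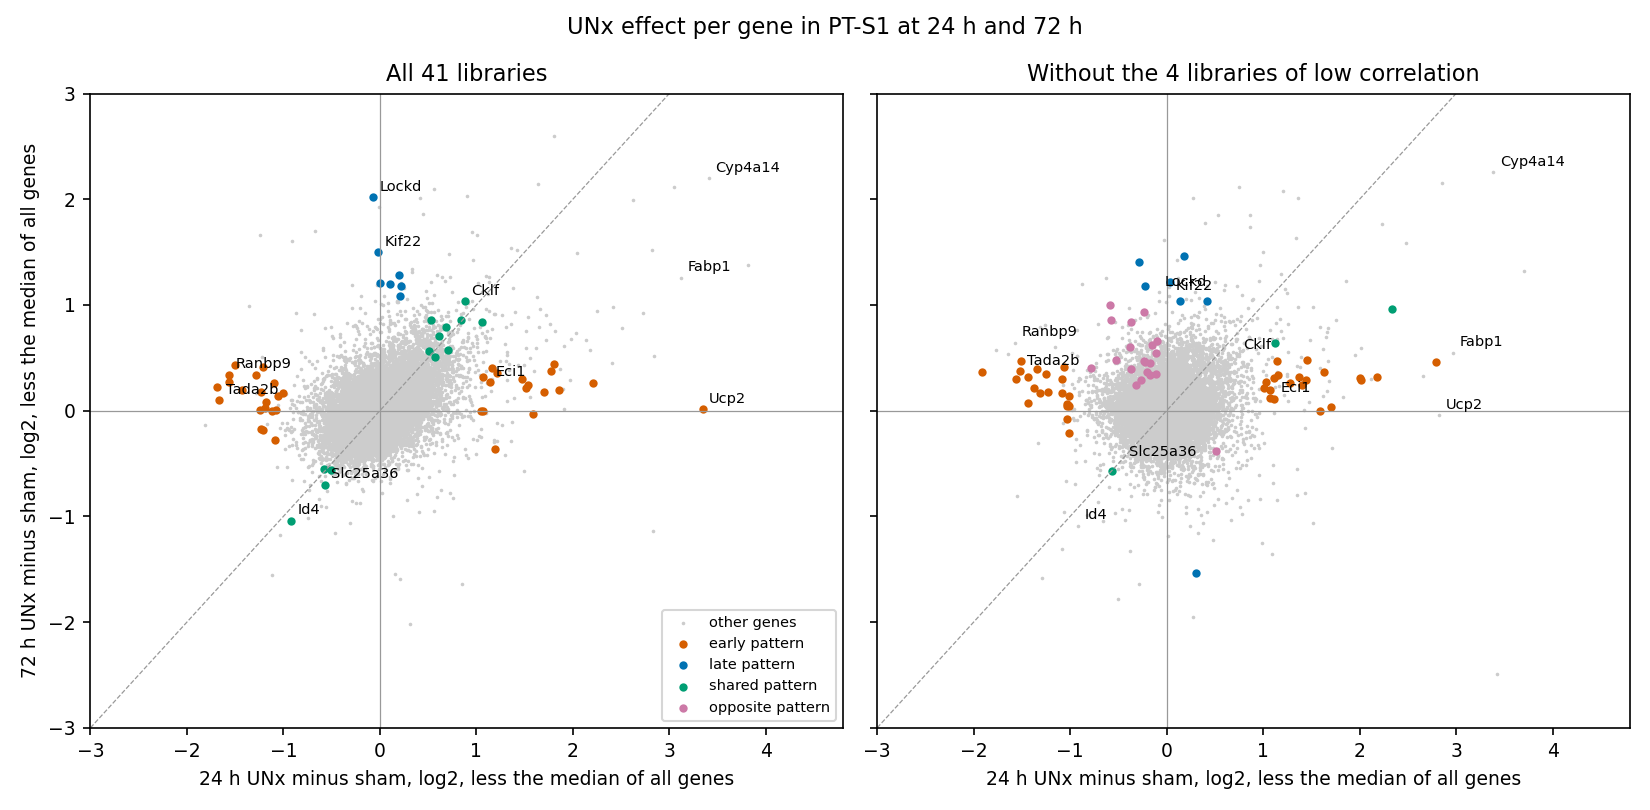
Relative effect of UNx in PT-S1 at 72 h (vertical axis, log2) against that at 24 h (horizontal axis, log2), each point a gene, with all libraries on the left and without the 4 libraries of low correlation on the right. Genes of the early, late and shared patterns are coloured, and they change in part between the panels: 23 of the 37 early genes, 2 of the 7 late genes and 1 of the 13 shared genes are coloured in both.

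With all libraries, fatty acid genes were the list with the most members higher in UNx at 24 h at an unadjusted p under 0.05. With median-ratio scaling and without the 4 libraries, 34 of its 58 tested members were higher (10.3% of all genes). Respiratory chain genes then had 40 of 73 and ribosomal protein genes 35 of 79. Of the 64 listed PPAR-alpha targets and fatty acid oxidation genes, 58 were tested. At 24 h 19 were higher and 1 lower at an unadjusted p under 0.05 (1.76% and 13.2% of all genes), against 5 higher and 3 lower at 72 h (1.41% and 26.2%), and in 16 of them every UNx animal lay above every sham animal at 24 h (2.86% of all genes) while none did at 72 h (0.21%). Their median relative effect was 0.61 at 24 h and 0.20 at 72 h, where that of all genes is 0 by construction. The difference was lower at 72 h in 14 members at an unadjusted p under 0.05 (1.96% of all genes) and higher in none (1.37%). With the 4 libraries left out, the medians were 0.55 and 0.29. At 24 h 14 members were then higher and 2 lower past the adjusted threshold (0.376% and 7.71% of all genes), or 9 higher (0.288%) and none lower with median-ratio scaling as well. For the difference 2 members, Fabp1 and Eci1, passed it, both lower at 72 h (0.0612%). The contrast between the times was smaller in that analysis. The groups were separate with UNx higher in 11 members at 24 h (1.67% of all genes) and 3 at 72 h (1.57%), 22 members were higher at 24 h (1.99%) and 17 at 72 h (9.6%) at an unadjusted p under 0.05, and the difference was lower at 72 h in 8 (1.79%) and higher in 5 (20.8%).

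Fabp1 rose at 24 h. Its TPM in the 24 h sham animals was 4.11, 8.82 and 8.63, and in the 24 h UNx animals 48.004, 68.7, 106 and 33.96. At 72 h it was 4.95, 9.7997, 4.43, 12.8 and 5.93 in sham and 23.9, 24.8, 7.33, 12.6 and 12.1 in UNx. The 24 h groups were far apart, while at 72 h UNx animals 3 to 5 lay within the sham range, and the 2 highest values came from the animals with a library that stood apart, which fell to 7.86 and 14.7 without it. The effect was 2.93 ± 0.43 (SE) at 24 h (limma adjusted p = 0.0248) and 0.97 ± 0.36 at 72 h (adjusted p = 0.142). The difference was -1.96 ± 0.56, with an adjusted p of 0.998 with all libraries, and -2.23 ± 0.46 with 0.0334 without the 4. After median-ratio scaling without the 4 libraries its limma adjusted p was 0.048.

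The promoter of Fabp1 is shown because PPAR-alpha and its partner are known to bind repeats of the half-site AGGTCA. The 250 bases before its start, from RefSeq on the build GRCm38.p6, which is not the GRCm39 of the deposited tables, lie at chr6:71199629-71199878 on the + strand, with AGGTCA on either strand in capitals.
Fabp1: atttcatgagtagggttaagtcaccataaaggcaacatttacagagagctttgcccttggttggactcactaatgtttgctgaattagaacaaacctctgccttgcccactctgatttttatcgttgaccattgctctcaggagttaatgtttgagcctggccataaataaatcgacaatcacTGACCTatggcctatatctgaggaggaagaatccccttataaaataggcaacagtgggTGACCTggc
The half-site has 2 matches there, both on the opposite strand. In windows of 250 bases before to 50 after the start, searched on both strands, AGGTCA was found in 14 of 51 listed fatty acid genes with a window (27.5%) and in 18.1% of all 27025 genes of the table. An exact direct repeat of AGGTCA with 1 base between was in 0 of the 51 and in 0.0481% of all. Repeats with a mismatch were not searched for.

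Within the list the roles differed in size. Lipid droplet proteins and other targets had a median relative effect of 1.59 at 24 h and 0.26 at 72 h over 7 tested members. Mitochondrial beta-oxidation enzymes had 0.48 and 0.18 over 15, and the carnitine shuttle 0.48 and 0.10 over 6. The omega-hydroxylases, which oxidise the far end of fatty acids, stood at 1.42 at 24 h and 1.52 at 72 h over 7. The receptor Ppara itself was not higher, with effects of -0.34 and -0.46, and neither was the coactivator Ppargc1a, with -0.50 and -0.75.

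Eci1, a mitochondrial isomerase needed to oxidise unsaturated fatty acids, had 210.4, 269 and 312 TPM in 24 h sham and 510.5, 466, 655 and 407 in 24 h UNx. At 72 h its values were 201, 235, 199, 217 and 238 in sham and 169, 217, 229, 227 and 238 in UNx. The 24 h groups were separate and the 72 h groups overlapped. The effect was 0.94 ± 0.19 at 24 h and -0.02 ± 0.16 at 72 h, and the limma adjusted p of the difference was 0.998 with all libraries, 0.0342 without the 4 and 0.0338 with scaling as well.

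Ucp2, an inner mitochondrial membrane carrier, had 9.18, 7.12 and 20.2 TPM in 24 h sham and 84.9, 104, 517 and 27.5 in 24 h UNx, a wide spread with no overlap. The 72 h values were 9.73, 17.03, 14.7, 3.18 and 17.6 in sham and 4.95, 5.53, 9.57, 13.8 and 13.7 in UNx, which overlapped. The effects were 3.15 ± 0.70 and -0.28 ± 0.58, and the difference of -3.43 ± 0.91 was the largest fall among the named genes (limma adjusted p = 0.998, and 0.112 without the 4 libraries).

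Mgll, which cleaves monoacylglycerols, had 14.5, 12.7 and 22.4 TPM in 24 h sham, 33.6, 35.01, 114 and 27.6 in 24 h UNx, 16.95, 17.01, 14.4, 11.04 and 12.8 in 72 h sham and 8.53, 13.3, 11.5, 12.4 and 10.99 in 72 h UNx. Angptl4, a secreted inhibitor of lipoprotein lipase, had 21.6, 6.32 and 22.6 TPM in 24 h sham and 141, 29.2, 112 and 33.4 in 24 h UNx. The 72 h range of Angptl4 was 1.83 to 27.4 in sham and 6.05 to 16.7 in UNx. For both genes the groups were apart at 24 h only, with 24 h effects of 1.40 ± 0.35 and 2.02 ± 0.68 and 72 h effects of -0.32 and -0.03, and their differences did not pass (limma adjusted p of 0.0989 and 0.324 without the 4 libraries). Reep6, a protein that shapes the endoplasmic reticulum, and Vnn1, a pantetheinase, had 24 h effects of 1.66 and 1.61 with no overlap and 72 h effects of -0.10 and 0.15. Slc25a20, the carnitine carrier, and Acot1, an acyl-CoA thioesterase, were also in the early pattern with all libraries, with 24 h effects of 0.87 and 1.58 and 72 h effects of 0.03 and 0.08. Neither was in it without the 4 libraries.

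**Figure D2:**
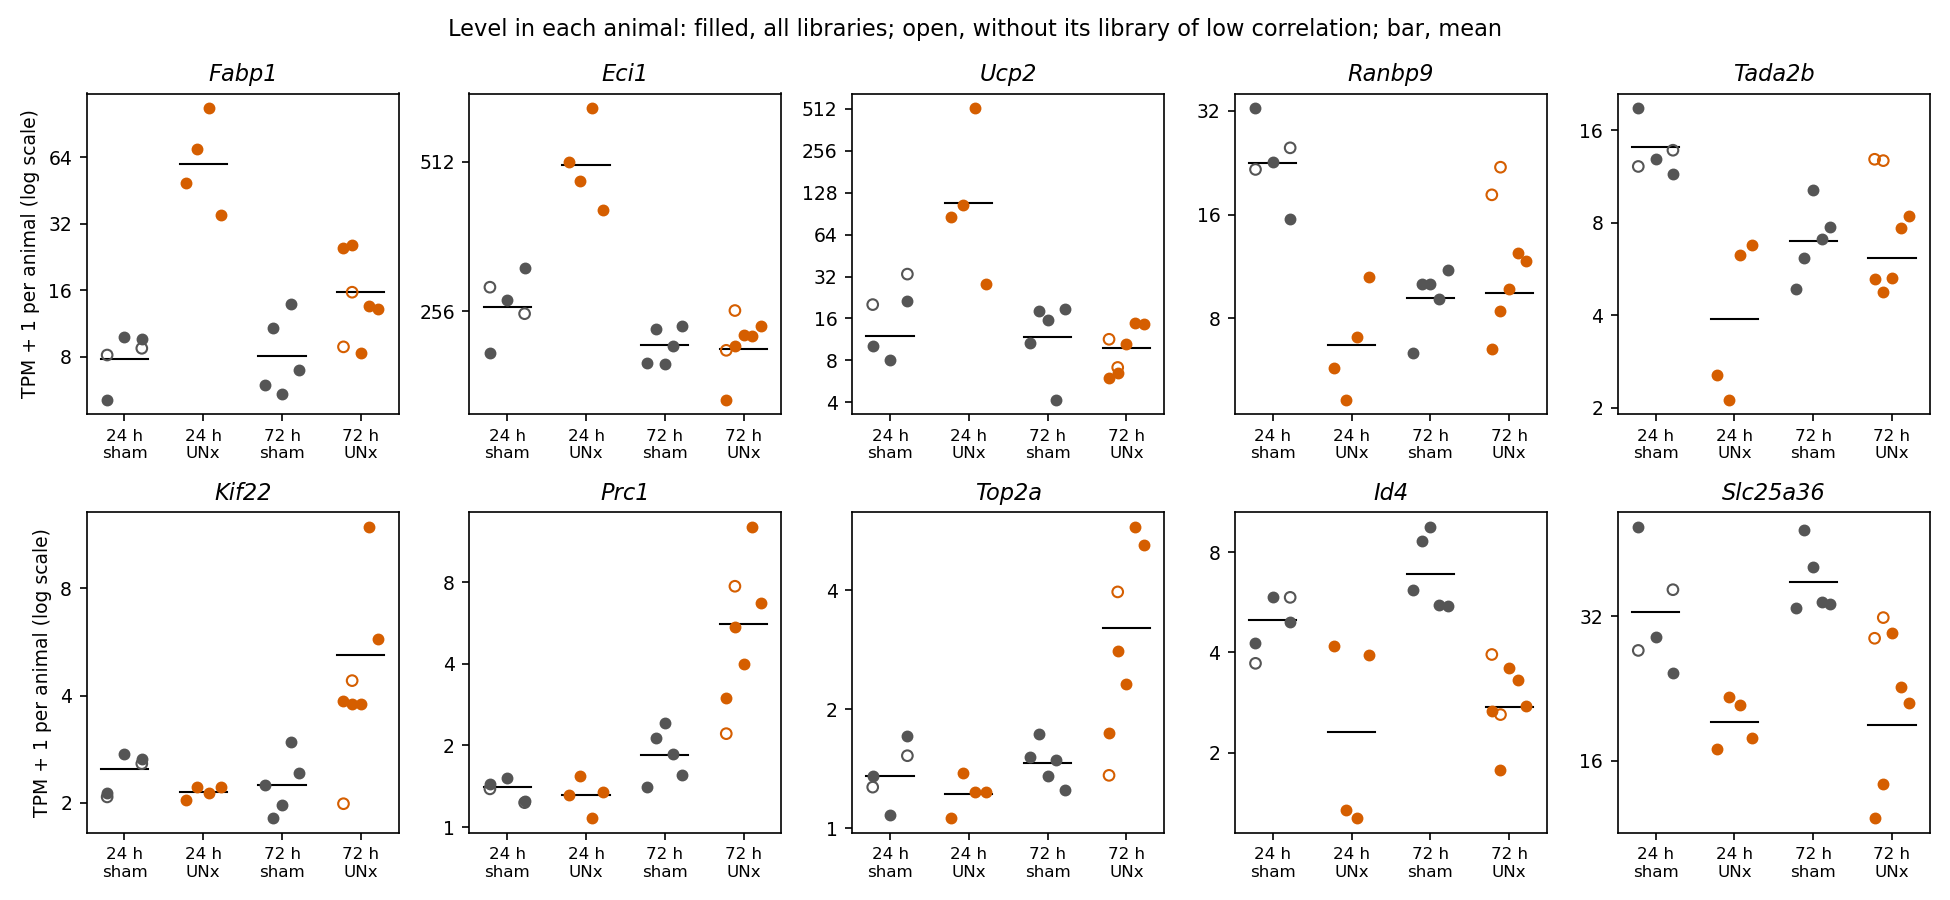
TPM + 1 per animal (vertical axes, log scale) of genes named in the text in the 4 PT-S1 groups, filled points with all libraries and open points for the 4 affected animals without the library that stood apart. Fabp1 is separate at 24 h (TPM of 34.0 to 106 in UNx, up to 8.82 in sham) and overlaps at 72 h, while Kif22 is separate at 72 h only.

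The S3 segment, farther down the proximal tubule, also expresses many of these genes, and its markers varied between animals. The summed TPM of the 9 S3 markers was 206, 48.04 and 218 in 24 h sham and 211, 731, 702 and 39.2 in 24 h UNx. UNx animals 2 and 3 were thus high and UNx animal 4 was lowest of the 7. UNx animal 4 had 34.0 TPM of Fabp1, where the sham maximum was 8.82. Of the 64 listed fatty acid genes it had 23 above every sham animal and 8 below (16.9% and 41.7% of all genes tested), or 16 and 14 without the 4 libraries (13.4% and 53.8%). UNx animals 1 to 3 had 40, 28 and 39 above (12.1%, 9.4% and 24.8%). At 72 h the S3 sum was 43.5, 168, 74.995, 19.1 and 968 in sham and 22.3, 27.3, 114, 278 and 123 in UNx. The part of S3 tubule in these effects was not tested.

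Mgst1, a microsomal glutathione transferase, led the early differences among the NRF2 and glutathione genes, with 67.9, 108 and 121 TPM in 24 h sham and 335, 278, 1393 and 167 in 24 h UNx. Its 72 h values were 93.3, 147, 79.7, 132 and 111 in sham and 89.4, 131, 174, 133 and 158 in UNx, which overlapped, with effects of 1.98 ± 0.48 and 0.28 ± 0.39. Of the 37 genes listed, 32 were tested. With all libraries 5 were higher and none lower at an unadjusted p under 0.05 at 24 h (1.76% and 13.2% of all genes), and none were higher and 2 lower at 72 h (1.41% and 26.2%). The contrast in counts was smaller without the 4 libraries. Then 6 were higher and 1 lower at 24 h (1.99% and 28.1%), and 5 higher and 2 lower at 72 h (9.6% and 8.02%). The median relative effect was 0.44 at 24 h and 0.02 at 72 h, or 0.34 and 0.07 without the 4 libraries. Gstm1 and Gstp1, both cytosolic glutathione transferases, were in the early pattern with 24 h effects of 0.85 and 0.97.

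Tubular injury genes had a median relative effect of 0.68 at 24 h and 0.11 at 72 h over 16 tested of 29, or 0.55 and 0.10 without the 4 libraries, and 4 were higher at 24 h at an unadjusted p under 0.05 (1.76% of all genes). Tnfrsf12a, the receptor of the cytokine TWEAK, had 29.7, 39.4 and 36.5 TPM in 24 h sham and 77.7, 58.7, 119 and 64.7 in 24 h UNx, with no overlap, and an effect of 1.12 ± 0.27. At 72 h it overlapped, with 17.2, 21.9, 18.8, 23.2 and 24.96 in sham, 17.98, 17.6, 26.6, 35.4 and 32.03 in UNx and an effect of 0.23 ± 0.22. Fgg, the fibrinogen gamma chain, was early by the pattern, but its 24 h UNx values of 10.2, 10.1, 97.2 and 13.3 against 6.44, 8.03 and 7.11 in sham rest mainly on UNx animal 3. That animal also had the highest Lgals3, the galectin-3 gene, with 0.552, 0.605, 14.02 and 1.39 TPM in the UNx animals, and the lowest S1/S2 marker sum of the 7, 9921 TPM against 13976 to 19014.

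Glycolytic enzymes had a median relative effect of 0.51 at 24 h and -0.11 at 72 h over 14 tested of 16, and without the 4 libraries the medians were 0.31 and 0.05. At 24 h 1 member was higher and none lower at an unadjusted p under 0.05 (1.76% and 13.2% of all genes), or 2 and 1 without the 4 libraries (1.99% and 28.1%). Eno1, an enolase, had 600, 709 and 684 TPM in 24 h sham and 1258, 996, 1357 and 991 in 24 h UNx. At 72 h Eno1 had 596, 633, 561, 599 and 675 in sham and 280.5, 369.5, 651, 707 and 648 in UNx, where the low UNx animals 1 and 2 had 578 and 817 without the library that stood apart. Its 24 h groups did not overlap, and the difference between effects was -1.07 ± 0.34 with all libraries and -0.48 ± 0.17 without the 4 (limma adjusted p of 0.998 and 0.121).

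The cytosolic HSP90 genes, which encode the chaperones that hold many kinases and receptors in an active fold, were 2 of the 7 genes with a lower effect at 72 h than at 24 h past the threshold without the 4 libraries. Hsp90ab1 had 512, 497 and 732 TPM in 24 h sham and 692, 898, 832 and 926 in 24 h UNx, and 614, 555, 613, 573 and 693 in 72 h sham and 395, 497, 546, 616 and 560.2 in 72 h UNx. With all libraries sham animal 3 lay within the 24 h UNx range. The difference for Hsp90ab1 was -0.77 ± 0.24 with all libraries and -0.69 ± 0.16 without the 4 (limma adjusted p of 0.998 and 0.0399), and for Hsp90aa1 -0.75 ± 0.26 and -0.89 ± 0.17 (adjusted p of 0.998 and 0.0331). Over 22 tested chaperones the median relative effect was 0.27 at 24 h and -0.06 at 72 h.

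Tubb2a, a beta-tubulin, had 10.7, 16.5 and 11.8 TPM in 24 h sham and 38.01, 31.3, 38.2 and 28.998 in 24 h UNx, with no overlap. Its 72 h values were 10.95, 9.98, 11.1, 11.7 and 12.4 in sham and 4.496, 4.98, 15.7, 21.1 and 17.7 in UNx, where UNx animals 3 to 5 were above all sham animals and animals 1 and 2 below, at 9.38 and 9.33 without the library that stood apart. Its early pattern held in both analyses, with effects of 1.34 and -0.05 with all libraries and 1.15 and 0.29 without the 4.

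Among the 46 tested proximal tubule transporters, the largest early differences were in Slc38a3, a glutamine carrier, and Slc5a1, a glucose carrier, both of which are stronger in late than in early proximal tubule. Slc38a3 had 1.65, 1.87 and 1.63 TPM in 24 h sham and 28.2, 14.05, 79.8 and 1.36 in 24 h UNx, and Slc5a1 had 0.95, 0.162 and 1.41 and 4.97, 7.61, 66.9 and 0.271. In the order of UNx animals 1 to 4, whose S3 marker sums are given above, animal 3 was highest in both genes and animal 4 lowest. Animal 1, with an S3 sum within the sham range, had more Slc38a3 than animal 2 and than any sham animal. The part of S3 tubule here was not tested. The 24 h effects of 2.65 ± 0.76 and 2.21 ± 0.92 fell short of the threshold, and at 72 h the effects were 0.22 and 0.16.

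The early lower genes included regulators of transcription and of protein turnover. Irf2bp2 passed at 24 h with all libraries. Its TPM was 26.3, 14.96 and 16.1 in 24 h sham and 4.09, 6.11, 7.39 and 8.15 in 24 h UNx, against 9.71, 9.85, 9.76, 13.5 and 9.87 in 72 h sham and 10.4, 8.25, 10.01, 10.4 and 8.85 in 72 h UNx. The 24 h groups were separate and the 72 h groups overlapped. The effects were -1.43 ± 0.22 (limma adjusted p = 0.0275) and -0.12 ± 0.18, and the difference was 1.31 ± 0.29 with all libraries (adjusted p = 0.998) and 1.93 ± 0.41 without the 4 (adjusted p = 0.0342, or 0.112 with median-ratio scaling).

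Ranbp9, a scaffold of the CTLH ubiquitin ligase, had the smallest unadjusted p of the difference. It had 31.6, 21.7 and 14.6 TPM in 24 h sham and 4.75, 3.65, 6.07 and 9.55 in 24 h UNx, and 5.37, 9.09, 9.08, 8.14 and 10.1 in 72 h sham and 5.51, 7.42, 8.76, 11.4 and 10.7 in 72 h UNx. Only the 24 h groups were separate, and with all libraries the 24 h sham animals had the highest values. The 2 times were treated as normalized separately, so levels cannot be ranked across them with certainty. Without the library that stood apart, 72 h UNx animals 1 and 2 had 17.3 and 20.97, each from a single library, which moved the 72 h effect from 0.05 to 0.62. The 24 h effect was -1.76 ± 0.30, and the difference 1.81 ± 0.39 with all libraries and 2.41 ± 0.36 without the 4 (limma adjusted p of 0.998 and 0.00842, and 0.0337 with scaling).

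Cnnm3, a magnesium transport protein, and Tada2b, an adaptor of the SAGA histone acetyltransferase, followed the same course. Cnnm3 had 23.02, 14.1 and 11.7 TPM in 24 h sham and 3.48, 1.84, 5.504 and 6.08 in 24 h UNx, with a range of 3.87 to 8.57 in 72 h sham and 4.18 to 9.39 in 72 h UNx. Tada2b had 17.9, 11.9 and 10.5 in 24 h sham and 1.55, 1.12, 5.25 and 5.76 in 24 h UNx, with a range of 3.88 to 9.23 in 72 h sham and 3.77 to 7.38 in 72 h UNx. The differences were 1.73 ± 0.42 and 1.67 ± 0.48 with all libraries (limma adjusted p of 0.998 for both), and 2.18 and 2.08 without the 4 (adjusted p of 0.0149 and 0.0441, or 0.0338 and 0.12 with scaling). Znrf2, a ubiquitin ligase, had effects of -1.89 ± 0.53 at 24 h and -0.07 ± 0.44 at 72 h.

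Rxra, the DNA-binding partner of PPAR-alpha, was early lower by the pattern with all libraries. It had 58.5, 40.9 and 27.01 TPM in 24 h sham and 9.66, 8.44, 25.5 and 19.5 in 24 h UNx, with a range of 17.5 to 31.1 in 72 h sham and 10.8 to 24.3 in 72 h UNx. The effects were -1.43 ± 0.37 and -0.46 ± 0.30, the former past the threshold without the 4 libraries (limma adjusted p = 0.0185) but not with median-ratio scaling as well (0.0627), and the difference in neither (0.0581 and 0.139). Of the 20 nuclear receptors tested, none were higher and 6, Rxra among them, lower at 24 h (1.76% and 13.2% of all genes) and none higher and 13 lower at 72 h (1.41% and 26.2%) at an unadjusted p under 0.05 with all libraries, with median relative effects of -0.22 and -0.17. The order of these counts depended on the 4 libraries. Without them 13 were lower at 24 h (28.1% of all genes) and 2 at 72 h (8.02%), and none were higher. The median relative effects were then -0.22 and -0.10.

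In the BMP and TGF-beta pathway, in which secreted ligands signal through Smad proteins, 11 of 25 tested genes were lower and none higher at 24 h at an unadjusted p under 0.05 (13.2% and 1.76% of all genes). At 72 h 5 were lower and none higher, where 26.2% of all genes were lower and 1.41% higher. The median relative effect was -0.31 at 24 h and -0.04 at 72 h, or -0.28 and 0.08 without the 4 libraries. In 6 of the 25 every UNx animal lay below every sham animal at 24 h (12.4% of all genes). Smad7, the inhibitory Smad, had 4.01, 3.67 and 3.22 TPM in 24 h sham and 1.096, 1.56, 1.46 and 1.16 in 24 h UNx, and 2.16, 1.65, 3.42, 1.76 and 2.15 in 72 h sham and 1.58, 1.14, 1.83, 1.29 and 1.42 in 72 h UNx, so that the groups were separate only at 24 h. Its effects were -0.9998 ± 0.18 and -0.38 ± 0.15. Ski, a Smad corepressor, had effects of -0.88 ± 0.20 and -0.23 ± 0.16, and the receptor Acvr1 -0.54 ± 0.19 and 0.03 ± 0.16.

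With all libraries, clock genes of the arm that peaks with Dbp had a median relative effect of -0.41 at 24 h and 0.12 at 72 h over 10 genes, of which 4 were lower at 24 h at an unadjusted p under 0.05 (13.2% of all genes) and none passed the adjusted threshold. Without the 4 libraries 6 were lower at 24 h (28.1%). Past the adjusted threshold, 2 were then lower at 24 h (7.71%) and 2 had a higher effect at 72 h (1.57%). None passed it with median-ratio scaling as well. Genes of the opposite arm had median relative effects of 0.33 at 24 h and -0.18 at 72 h over 5 with all libraries. Dbp, an output transcription factor of the clock, had 135, 151 and 129 TPM in 24 h sham and 89.7, 68.5, 76.9 and 89.8 in 24 h UNx, with no overlap. Its 72 h values were 9.81, 10.7, 8.91, 13.98 and 15.8 in sham and 14.97, 14.7, 33.2, 10.4 and 16.6 in UNx, which overlapped. The effects were -0.77 ± 0.28 and 0.49 ± 0.23, and the difference was 1.25 ± 0.36 with all libraries and 1.49 ± 0.36 without the 4 (limma adjusted p of 0.998 and 0.0446, or 0.156 with median-ratio scaling as well). Arntl, the clock activator BMAL1, and Nfil3, a repressor of Dbp targets, had 72 h effects of -0.93 ± 0.27 and -1.01 ± 0.32 and 24 h effects of 0.21 and 0.24. Clock genes change with the hour of dissection, which is not given in the sources used here, and its part in these differences was not tested.

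**Figure D3:**
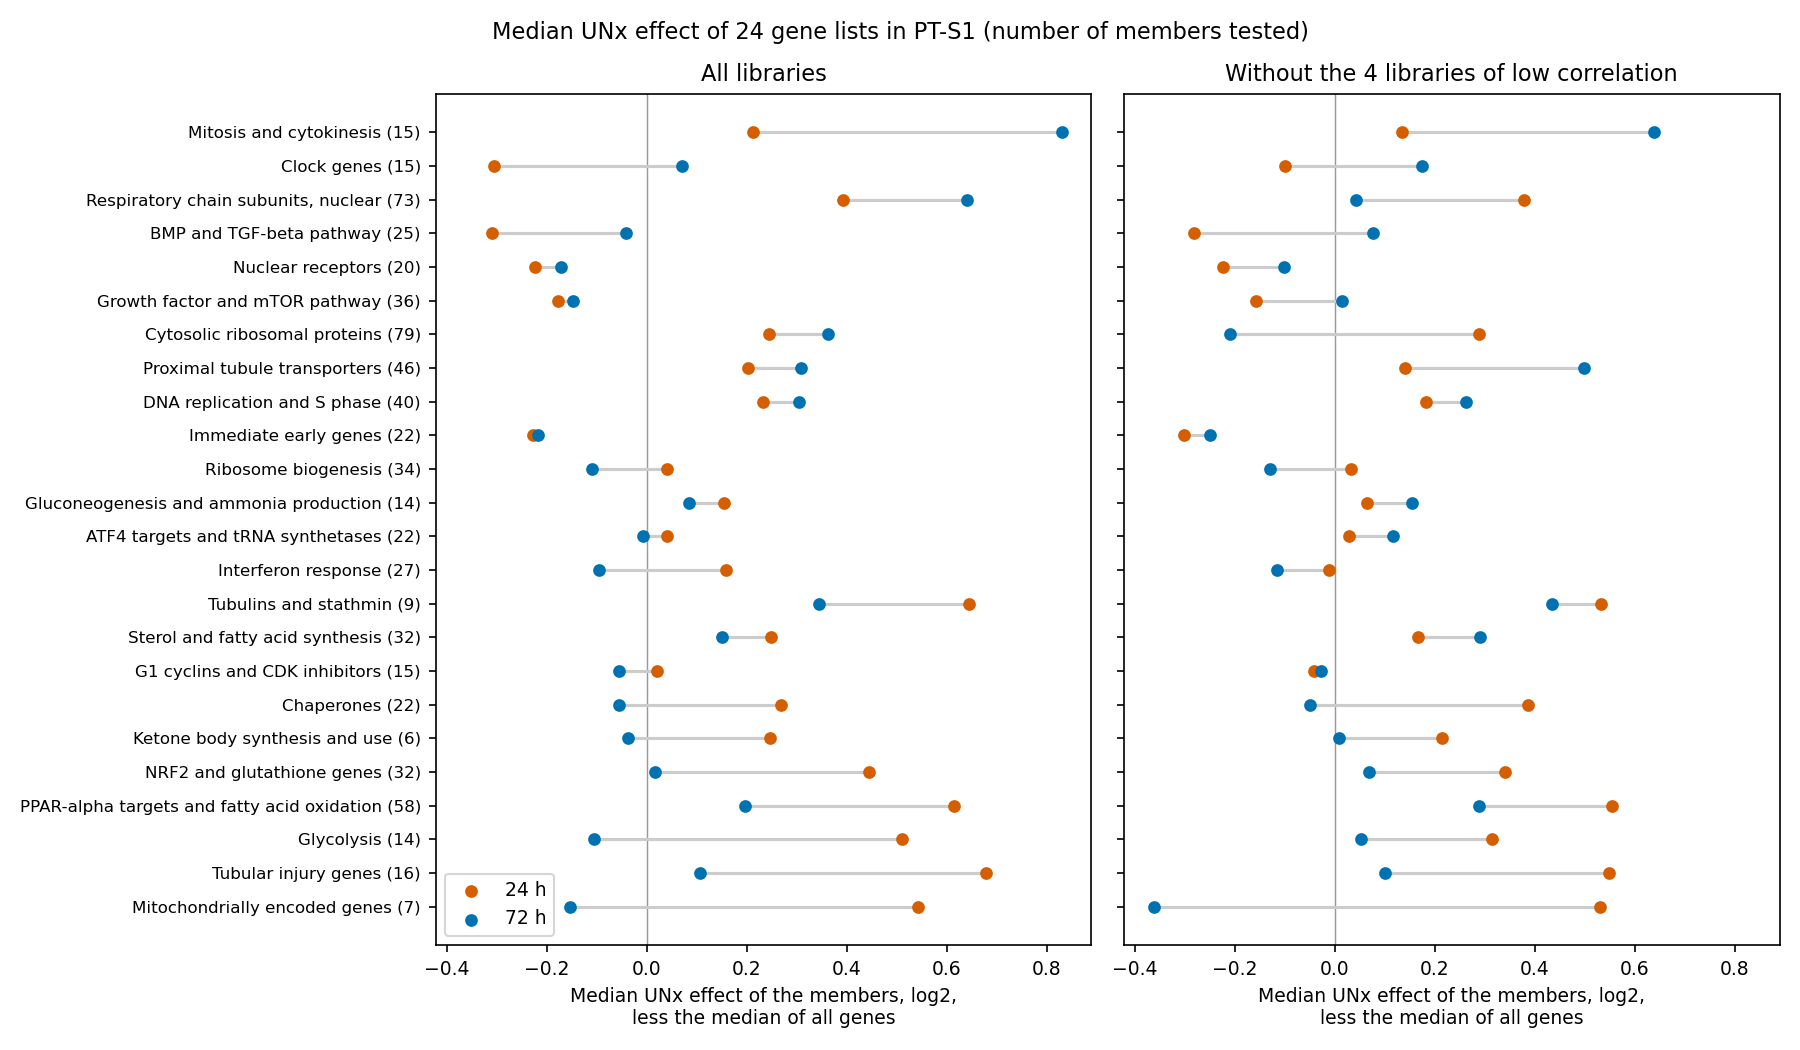
Median relative effect of each gene list (horizontal axis, log2) at 24 h and 72 h, with all libraries on the left and without the 4 libraries of low correlation on the right. Fatty acid, injury, NRF2 and glycolysis genes lie farther right at 24 h and mitosis genes at 72 h in both panels. Respiratory chain and ribosomal protein genes change order between the panels. So do the lists of sterol and fatty acid synthesis, gluconeogenesis, ATF4 targets, and G1 cyclins and CDK inhibitors.

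At 72 h the values of cell division genes were higher in most UNx animals than in sham animals, and at 24 h they were not. Only 15 of the 60 listed mitosis and cytokinesis genes passed the filter at a mean TPM of 1, and since a member can pass through the group in which it is high, all 60 were also taken from a fit of 22814 genes with no such filter. In that fit 49 of 60 were higher in UNx at 72 h at an unadjusted p under 0.05 (1.81% of all genes) and none were lower (16.8%), while at 24 h none were higher (1.23%) and 1 was lower (10.6%). The median effect was -0.01 at 24 h and 0.70 at 72 h, where all genes had -0.07 and -0.09. No member passed the adjusted threshold at either time or for the difference. Every UNx animal lay above every sham animal in 8 of 60 at 72 h (0.237% of all genes) and in 0 of 60 at 24 h (1.67%). With the 4 libraries left out, 50 of 60 were higher at 72 h at an unadjusted p under 0.05 (6.41% of all genes), with a median of 0.79, and every UNx animal lay above every sham animal in 4 (0.981%).

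The summed TPM of the 60 genes showed which animals carried this. It was 178, 225 and 196 in 24 h sham and 246, 202, 177 and 221 in 24 h UNx, which overlapped. At 72 h it was 138, 144, 132, 182 and 159 in sham and 125, 207, 249, 607 and 324 in UNx. UNx animals 2 to 5 lay above every sham animal and animal 1 below all of them, also without the library that stood apart (128 and 309 for animals 1 and 2). The number of the 60 genes above every sham animal was 9, 45, 52, 57 and 54 in 72 h UNx animals 1 to 5, where all genes of that fit gave 11.4% to 14.5%, and 5, 15, 11 and 18 in the 24 h UNx animals, where they gave 9.58% to 23.3%. The summed leukocyte markers spanned 250.04 to 707 TPM in 72 h sham and 83.7 to 700.1 in 72 h UNx, where UNx animal 4, with the highest mitosis sum, was lowest. Endothelial markers summed to 126 to 318 TPM in 72 h sham and 61.4 to 266 in 72 h UNx. Fibroblast and mural markers summed to 3.575 to 14.4 and 2.01 to 60.7. The part of these cells in the mitosis sums was not tested.

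**Figure D4:**
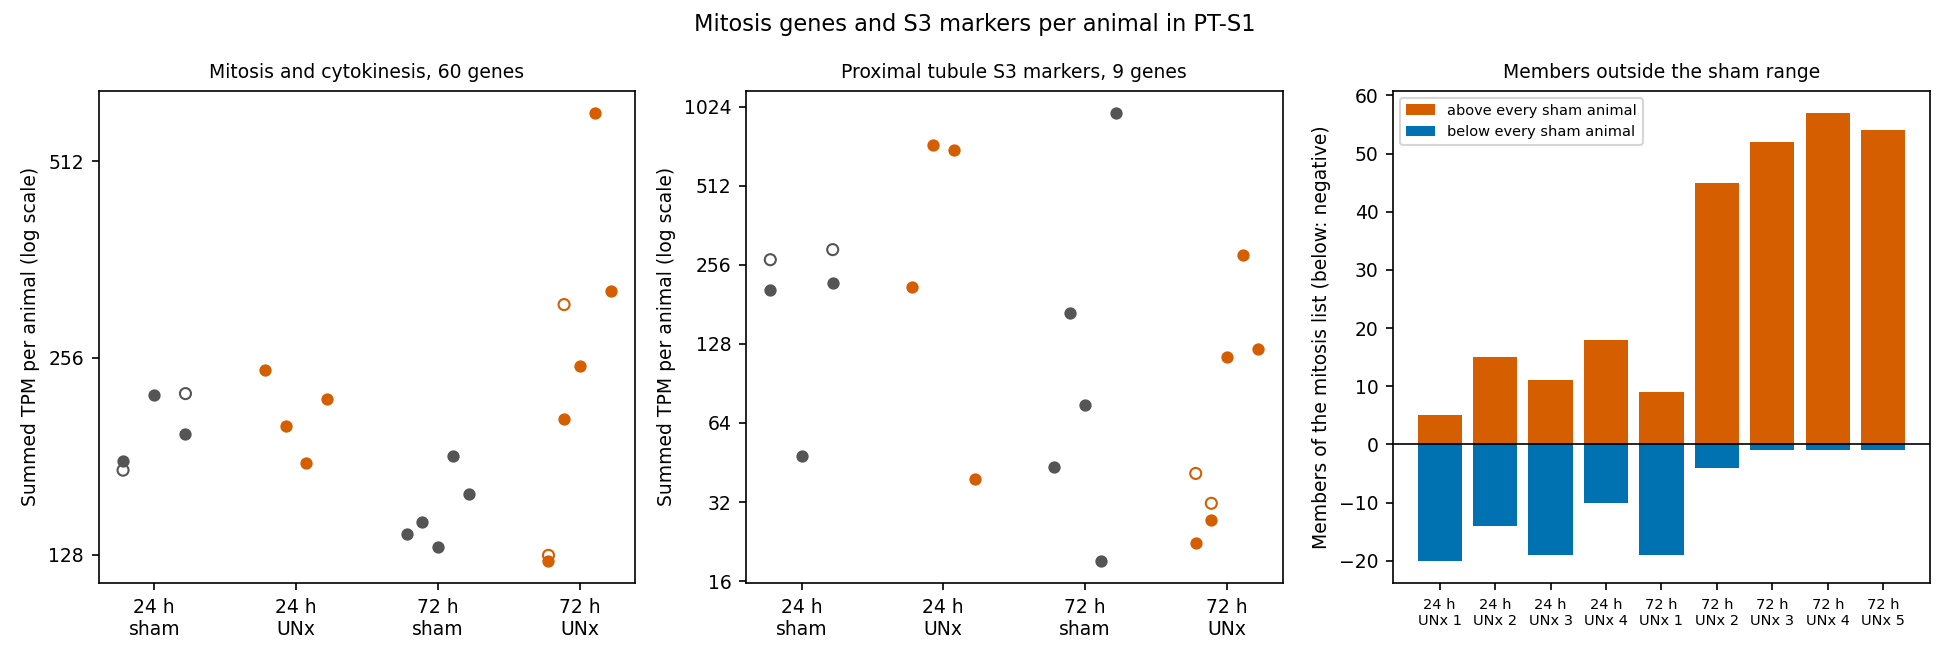
Summed TPM per animal of the 60 mitosis genes and of the 9 S3 markers (vertical axes, log scale) in the 4 PT-S1 groups, sham in grey and UNx in orange, filled points with all libraries and open points without the library that stood apart, with, on the right, how many of the 60 mitosis genes lay above (orange) or below (blue, drawn downward) every sham animal of the same time in each UNx animal. The mitosis sum is 207 to 607 in 72 h UNx animals 2 to 5 and at most 182 in 72 h sham, while the S3 sums of sham and UNx overlap at both times.

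Kif22, a chromosome-carrying kinesin, was the mitosis gene of the late pattern. It had 1.13, 1.74 and 1.65 TPM in 24 h sham and 1.03, 1.22, 1.13 and 1.21 in 24 h UNx, and 1.24, 0.812, 0.98, 1.96 and 1.42 in 72 h sham and 2.86, 2.79, 2.78, 10.9 and 4.79 in 72 h UNx. The groups were separate at 72 h only. The effects were -0.22 ± 0.31 and 1.21 ± 0.25, and the difference 1.43 ± 0.40 (limma adjusted p = 0.998, and 0.152 without the 4 libraries). Without its low library UNx animal 1 had 0.99, within the sham range, so the separation at 72 h rests on that library.

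Birc5, or survivin, of the chromosomal passenger complex, had 2.29, 1.77, 2.34, 2.36 and 2.51 TPM in 72 h sham and 2.41, 9.24, 5.49, 30.7 and 13.2 in 72 h UNx, with UNx animal 1 inside the sham range and the other 4 above it. At 24 h it had 0.933, 1.37 and 1.695 in sham and 0.574, 1.42, 0.734 and 1.43 in UNx. The effects were -0.21 ± 0.47 and 1.63 ± 0.39. Spc24, of the NDC80 kinetochore complex, had 4.17, 7.46, 4.34, 8.19 and 6.21 TPM in 72 h sham and 11.2, 10.6, 8.06, 21.8 and 11.8 in 72 h UNx, where animal 3 lay within the sham range, with effects of 0.02 and 0.92 ± 0.27.

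The next genes did not pass the filter, and their values come from the fit without it. Prc1, which bundles the microtubules of the dividing cell's midzone, had 0.446, 0.523 and 0.247 TPM in 24 h sham and 0.314, 0.549, 0.0788 and 0.344 in 24 h UNx, and 0.406, 1.13, 1.43, 0.861 and 0.551 in 72 h sham and 1.99, 4.48, 2.99, 11.8 and 5.71 in 72 h UNx. Top2a, which untangles replicated chromosomes, had 0.517, 0.732, 0.353, 0.488 and 0.251 in 72 h sham and 0.745, 1.81, 1.31, 4.79 and 4.21 in 72 h UNx, and Esco2, which joins sister chromatids in S phase, had 0.255, 0.0344, 0.144, 0.485 and 0.182 and 1.18, 1.38, 1.15, 3.76 and 3.86. In all 3 every 72 h UNx animal lay above every sham animal with all libraries, and the effects at 72 h were 1.61 ± 0.29, 1.14 ± 0.26 and 1.33 ± 0.21, against -0.10, -0.15 and -0.03 at 24 h. Without its low library UNx animal 1 had 1.21, 0.36 and 0.08 TPM, within the sham range for each. The proliferation marker Mki67 had 0.14, 0.145, 0.204, 0.483 and 0.325 TPM in 72 h sham and 0.239, 0.738, 0.926, 1.93 and 1.97 in 72 h UNx, with an effect of 0.71 ± 0.18, and stayed at or below 0.127 TPM in every 24 h animal.

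Promoters of 3 of these genes are shown because they carry the 2 motifs that are known from genes of late cell cycle. These are CCAAT, bound by NF-Y, and TTTGAA, a form of the cell cycle homology region, in capitals on either strand. Each is the 250 bases before the start, written in the direction of the gene, from RefSeq on GRCm38.p6: Top2a at chr11:99024190-99024439 (- strand), Prc1 at chr7:80294226-80294475 (+ strand) and Kif22 at chr7:127042421-127042670 (- strand).
Top2a: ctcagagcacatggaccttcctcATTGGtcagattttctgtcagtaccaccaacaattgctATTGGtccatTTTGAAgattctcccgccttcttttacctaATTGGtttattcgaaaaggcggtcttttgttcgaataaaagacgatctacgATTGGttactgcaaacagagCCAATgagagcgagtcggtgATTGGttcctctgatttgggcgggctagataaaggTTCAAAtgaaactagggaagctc
Prc1: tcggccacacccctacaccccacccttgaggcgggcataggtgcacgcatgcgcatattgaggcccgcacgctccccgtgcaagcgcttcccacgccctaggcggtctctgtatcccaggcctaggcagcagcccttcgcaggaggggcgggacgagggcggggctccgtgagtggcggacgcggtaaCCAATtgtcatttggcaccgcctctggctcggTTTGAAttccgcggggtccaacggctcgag
Kif22: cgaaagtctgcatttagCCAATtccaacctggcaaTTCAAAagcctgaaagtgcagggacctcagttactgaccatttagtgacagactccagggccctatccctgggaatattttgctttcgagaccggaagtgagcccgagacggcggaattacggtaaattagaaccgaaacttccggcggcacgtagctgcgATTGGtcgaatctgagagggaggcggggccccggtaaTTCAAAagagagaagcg
CCAAT and TTTGAA were read 6 and 2 times before Top2a, 1 and 1 before Prc1 and 2 and 2 before Kif22. In the 300-base windows, TTTGAA was in 36 of the 50 mitosis genes with a window (72%) and in 20.2% of all 27025 genes of the table, and CCAAT in 70% and 41.1%. CCAAT was also in 62.2% of S phase genes and 52.9% of fatty acid genes with a window, and TTTGAA in 15.6% and 9.8%. The E2F motifs TTTGGCGC, TTTCGCGC and TTTCCCGC, of which any was counted, were in 8% of the mitosis genes, in 18 of 45 S phase genes with a window (40%) and in 2.12% of all genes. These matches describe the letters of the windows and not binding.

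DNA replication and S phase genes had a smaller median effect at 72 h than mitosis genes. Of the 58 listed, 11 were higher and 3 lower in UNx at 72 h at an unadjusted p under 0.05 in the fit without a filter (1.81% and 16.8% of all genes), and none either way at 24 h, with median effects of 0.03 at 24 h and 0.13 at 72 h. Leaving out the 4 libraries, 21 were higher and none lower (6.41% and 7.56%). Lig1, which seals new DNA strands, had 1.59, 1.28, 2.23, 1.49 and 1.51 TPM in 72 h sham and 2.61, 2.82, 1.89, 3.64 and 2.104 in 72 h UNx, and Tk1, the thymidine kinase of S phase, had 7.56, 5.29, 9.56, 9.12 and 11.3 and 4.77, 8.46, 13.7, 29.5 and 16.05. Both overlapped, with 72 h effects of 0.45 ± 0.20 and 0.51 ± 0.31.

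Other genes of the late pattern included Lockd, a noncoding RNA transcribed next to the cell cycle inhibitor Cdkn1b, Tmsb15b1, a thymosin that binds actin, and Serpinc1, which encodes antithrombin. Lockd had 1.03, 0.746, 3.27, 3.22 and 2.61 TPM in 72 h sham and 5.11, 18.3, 4.404, 15.5 and 7.68 in 72 h UNx, against 1.07, 1.502 and 1.18 in 24 h sham and 0.477, 1.04, 0.636 and 1.47 in 24 h UNx. The groups were separate at 72 h only, yet UNx animal 1 had 0.6 without its low library and joined the sham range. Its effects were -0.27 ± 0.41 and 1.73 ± 0.34, and the difference was 1.99 ± 0.53 with all libraries and 1.40 ± 0.71 without the 4.

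Tmsb15b1 had 3.84, 3.33, 4.46, 5.93 and 4.498 TPM in 72 h sham and 14.4, 13.3, 5.93, 7.76 and 9.12 in 72 h UNx, where the lowest UNx animal equalled the highest sham animal to 3 digits. Serpinc1 had 3.395, 7.04, 2.79, 7.53 and 7.36 in 72 h sham and 9.89, 8.22, 11.1, 11.8 and 13.2 in 72 h UNx, with all UNx animals above, and 5.57, 8.83 and 4.97 in 24 h sham and 7.58, 8.68, 1.61 and 9.07 in 24 h UNx. Serpinc1 kept the late pattern without the 4 libraries, with 14.7 and 16.8 TPM in UNx animals 1 and 2 and a 72 h effect of 1.20 ± 0.33, against 0.90 ± 0.33 with all libraries. Its difference did not pass (limma adjusted p = 0.998, and 0.13 without the 4).

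Few genes had the shared pattern. Id4, an inhibitor of helix-loop-helix transcription factors and a BMP target, was the listed pathway member with the shared pattern. It had 3.28, 4.88 and 3.93 TPM in 24 h sham and 3.18, 0.344, 0.27 and 2.92 in 24 h UNx, and 5.15, 7.66, 8.55, 4.54 and 4.52 in 72 h sham and 1.66, 0.774, 2.58, 2.29 and 1.75 in 72 h UNx. All UNx animals lay below the sham animals at both times, narrowly so in 24 h UNx animals 1 and 4. The effects were -1.12 ± 0.38 and -1.33 ± 0.31, with a difference of -0.22 ± 0.49. Without the 4 libraries sham animal 1 at 24 h had 2.71 TPM and the 24 h groups overlapped.

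Itpr2, a channel that releases calcium from the endoplasmic reticulum, was the gene whose shared pattern held in both analyses. It had 55.8, 35.6 and 46.4 TPM in 24 h sham and 29.5, 26.02, 20.1 and 29.6 in 24 h UNx, and 77.4, 62.1, 58.7, 102 and 54.7 in 72 h sham and 25.5, 32.7, 51.6, 36.7 and 51.1 in 72 h UNx. Its effects were -0.77 ± 0.26 and -0.84 ± 0.22 with all libraries and -0.78 ± 0.20 and -0.59 ± 0.17 without the 4. Slc25a36, a mitochondrial carrier of pyrimidine nucleotides, had effects of -0.76 ± 0.28 and -0.99 ± 0.23.

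The shared higher genes were led by Cklf, a chemokine-like factor, and Cnih4, a cargo receptor of the secretory pathway. Cklf had 5.64, 5.54 and 6.2005 TPM in 24 h sham and 11.5, 8.495, 11.6 and 8.66 in 24 h UNx, and 6.79, 4.96, 5.85, 6.92 and 6.31 in 72 h sham and 13.2, 11.4, 9.36, 10.9 and 10.1 in 72 h UNx. It was separate at both times with all libraries, and the effects of 0.69 ± 0.17 and 0.74 ± 0.14 differed by 0.05 ± 0.23. When the 4 libraries were left out, UNx animal 2 at 72 h had 6.61 and overlapped the sham animals. Cnih4 had effects of 0.65 and 0.57, Cd63, a tetraspanin of lysosomes, 0.49 and 0.50, and Spcs1, of the signal peptidase, 0.42 and 0.41, each with no overlap at both times with all libraries and with overlap at 72 h without the 4.

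Cyp4a10 and Cyp4a14, omega-hydroxylases and PPAR-alpha targets, had positive effects at both times without meeting the shared pattern. Cyp4a14 had 35.1, 16.2 and 111 TPM in 24 h sham and 444, 449, 809 and 129 in 24 h UNx, and 2.52, 11.5, 1.395, 0.846 and 8.06 in 72 h sham and 3.87, 34.3, 17.1, 19.4 and 19.7 in 72 h UNx. Cyp4a10 had 126, 126 and 329.6 and 1518, 1103, 1655 and 479.6 at 24 h, and 16.1, 56.7, 9.49, 16.7 and 77.3 and 19.5, 47.7, 95.3, 86.5 and 119 at 72 h. With all libraries the groups were separate at 24 h and overlapped at 72 h, where UNx animals 3 to 5 lay above all sham animals for both genes. Without the 4 libraries this changed. Sham animal 3 at 24 h then had 163 and 491 TPM of Cyp4a14 and Cyp4a10, above UNx animal 4, so that both overlapped at 24 h, and 72 h UNx animal 1 had 11.96 of Cyp4a14, above every sham animal, so that this gene was separate at 72 h. Of the 7 omega-hydroxylases, 3 were separate with UNx higher at 24 h and none at 72 h with all libraries, and none at 24 h and 2 at 72 h without the 4. The effects were 3.21 ± 0.76 and 1.91 ± 0.63 for Cyp4a14 and 2.62 ± 0.67 and 1.23 ± 0.56 for Cyp4a10, with differences of -1.30 ± 0.99 and -1.40 ± 0.88 (limma adjusted p of 0.998 for both). These 2 genes lie in a family of near-identical copies, and reads shared between the copies make their levels uncertain.

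For some lists the order of the times depended on the 4 libraries. Nuclear-encoded respiratory chain subunits had median relative effects of 0.39 at 24 h and 0.64 at 72 h with all libraries, and 0.38 and 0.04 without the 4. Cytosolic ribosomal protein genes went from 0.24 and 0.36 to 0.29 and -0.21. For other lists the order held. Proximal tubule transporters went from 0.20 and 0.31 to 0.14 and 0.50, with 0 of 46 higher at 72 h at an unadjusted p under 0.05 with all libraries (1.41% of all genes) and 26 without the 4 (9.6%). The 7 tested genes encoded by mitochondrial DNA had 0.54 and -0.15 with all libraries and 0.53 and -0.36 without the 4. In neither analysis was any of the 7 under an unadjusted p of 0.05 at 24 h or at 72 h. With all libraries 14.9% and 27.6% of all genes were. The member of the 7 with the smallest p of the difference, mt-Nd1, a subunit of respiratory complex I, spanned 7238 to 13220.2 TPM in 24 h sham and 12490.3 to 23997 in 24 h UNx, and overlapped between sham and UNx at both times. The share of TPM from mitochondrial DNA varied between libraries, from 4.50% to 19.6% in 72 h sham and 3.97% to 10.9% in 72 h UNx. The part of this spread in the 72 h values was not tested.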

How the data were processed

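RNA-seq values of PT-S1 tubules were taken from 2 tables, 1 per time, in which the authors deposited TPM per gene and library. A Zymo kit was used to extract RNA and the SMART-Seq V4 kit to make cDNA from polyA RNA, per the labels' protocols, and per the submitters' processing notes STAR and RSEM 1.3.3 were used with GRCm39. TPM totals carry no depth, so the depth of each library is unknown and no counting interval was computed. The tables were treated as normalized separately, and every effect was taken within a table.

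Titles number the Sham or UNx mouse, and that number was taken to identify the animal. For 10 columns the name gave the group and animal but not which of that animal's libraries, which does not touch animal means. Nothing states how the libraries of an animal were made, so p-values measure the spread between these animals only. log2(TPM + 1), with a pseudocount of 1, was averaged per animal. Genes averaging 1 TPM or more in each table were fitted with limma 3.58.1 in R 4.3.3 as 4 groups, with empirical Bayes moderation and a trend, two-sided, with Benjamini-Hochberg adjustment over all genes tested and a threshold of 0.05. Fold changes on this scale understate the change of genes with low values. The fit was also run on simulated data, with changes added to the 24 h UNx group only and independent noise per gene. The simulation held no library-wide departure such as that of the 4 libraries, and no result here rests on it.

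The comparison, the 24 gene lists and 11 marker lists were chosen with earlier results of these data known. Genes named were the 5 with the smallest p of the difference in each direction, up to 4 higher and 4 lower of each pattern by size, up to 3 members of each list by p of the difference, and a few known from earlier results (Fabp1, Cyp4a10, Cyp4a14, Esco2, Prc1, Top2a, Mki67, Id4 and segment markers). The first 2 kinds needed a mean of 10 TPM or more in a group and passed over predicted genes. Some genes that the rule named are not reported here. Ppara, Ppargc1a, Slc25a20, Acot1, Gstm1, Gstp1, Smad7 and Heca were named after their values were seen where that rule did not name them. The analysis without the 4 libraries of low correlation was planned, and its combinations with scaling, the block or no filter were added after seeing the data. Promoters came from RefSeq on GRCm38.p6, and no gene coordinates on GRCm39 are given.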

Additional observations from a re-analysis of the deposited data

Results flagged for a closer look

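The values of 56 genes were examined in the 24 h UNx, 72 h sham and 72 h UNx groups, but not in 24 h sham. In 9 of the 168 combinations of gene and group (5.36%) 1 animal stood far from the others by Dixon's criterion, where chance gives about 1 in 20. The combinations share the same animals and are not independent. At 24 h, 3 of the 9 were UNx animal 3: Mgll at 114.5 TPM where the other UNx animals ran from 27.55 to 35.01, Fgg at 97.2 against 10.13 to 13.26, and Serpinc1 at 1.607 against 7.577 to 9.074. UNx animal 1 at 72 h, which has a library of low correlation, was low for Eci1, at 169 TPM against 217 to 237.9. Among the 72 h sham animals, animal 3 was high for Lgals3 (8.039 against 1.038 to 1.835), animal 4 was high for Irf2bp2 (13.54 against 9.715 to 9.874) and animal 2 was low for Birc5 (1.769 against 2.295 to 2.505). Of the other 72 h UNx animals, animal 3 was low for Spcs1 (389.6 against 409.1 to 414.8) and animal 5 for Gt(ROSA)26Sor, a noncoding RNA (13.39 against 16.21 to 17.4).

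For 9 named genes the effect at 72 h differed from that at 24 h by limma's test of the difference without the 4 libraries of low correlation. The effect was lower at 72 h for Fabp1 by a difference of -2.227 (adjusted p = 0.0334), Eci1 by -0.8076 (0.0342), Hsp90aa1 by -0.8911 (0.0331) and Hsp90ab1 by -0.6888 (0.0399). It was higher at 72 h for Ranbp9 by 2.41 (adjusted p = 0.00842), Irf2bp2 by 1.927 (0.0342), Cnnm3 by 2.178 (0.0149), Tada2b by 2.082 (0.0441) and Dbp by 1.494 (0.0446). With all libraries none of the 9 passed. With median-ratio scaling of the same libraries Irf2bp2 (adjusted p = 0.112), Tada2b (0.12) and Dbp (0.156) did not pass, and the other 6 did. The cause of these changes was not tested.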

How the results depend on the processing

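The direction of the 91 gene effects followed was steady in nearly all settings and the calls were not. These genes were named largely by size or p in these same data, which favours steady directions. Effects not followed could change sign, as the 72 h effect of Ldha did without the 4 libraries. Of 3244 alternative values of 91 gene effects, 2975 kept direction and side of the threshold, 249 passed it only under the alternative, 19 lost it and 1 reversed, Pgam1, whose difference became 0.0060 without the 4 libraries of low correlation and with the replicate block. The 480 alternative list medians, of the difference less that of all genes, stayed within the limit set. That limit, the root of the summed variances between animals in the 4 groups, was wide. Without the 4 libraries respiratory chain genes went from 0.19 to -0.33 and ribosomal protein genes from 0.05 to -0.51, still within it. The limit therefore cannot show that a list is steady. The number of genes whose effect differed between the times, 0 in all, was 1 with no filter on TPM, 376 with array weights, 187 without the 4 libraries, 14 with median-ratio scaling as well, 180 with the replicate block as well and 28 with no filter as well, and 0 whichever animal was left out.

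The 24 h count of 2 became 23 with a pseudocount of 5, 7 with no filter, 14 after quantile normalization, 24 after median-ratio scaling, 107 with the log2 of mean TPM, 126 with every library as a replicate, 79 with the animal as a random effect, 1641 with array weights and 0 with each time fitted alone. Without the 4 libraries it was 925, or 48 with median-ratio scaling, 1345 with the replicate block and 388 with no filter. It ranged from 0 to 16 when 1 animal was left out, and was 67 without the low library of 24 h sham animal 3 alone and 1 without that of 72 h UNx animal 1 or 2. The 72 h count of 0 became 1 with a pseudocount of 0.1, 2 after median-ratio scaling, 83 with every library as a replicate, 52 with the animal as a random effect, 1835 with array weights and 35 without the 4 libraries with the replicate block.

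The early pattern fell to 14 genes and the late pattern to 2 with a relative effect of 1.5 in place of 1. The shared pattern held 43 genes after median-ratio scaling and 3 without the 4 libraries, and the opposite pattern 2, 20 and, with both, 17. The cause of these changes was not tested. Whether animal numbers pair sham with UNx animals is not stated, and no pairing was assumed. The correlation of same-numbered deviations ran from -0.06 to 0.25 at 24 h and from -0.38 to 0.33 at 72 h, too few values to decide it. With the replicate block alone 22 genes passed at 24 h. Depth is unknown, so levels under about 1 TPM carry an unstated counting error.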

Other observations

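Gt(ROSA)26Sor, a noncoding RNA that is expressed in most tissues, was among the 5 genes with the smallest p of a lower effect at 72 h. Its 24 h values were 10.1, 9.16 and 9.56 TPM in sham and 15.7, 14.3, 18.3 and 16.7 in UNx, which did not overlap. At 72 h it had 17.4, 23.6, 21.4, 16.8 and 12.999 in sham and 16.4, 17.4, 16.2, 16.6 and 13.4 in UNx, which overlapped. The effects were 0.69 ± 0.19 and -0.17 ± 0.16, and the difference had a limma adjusted p of 0.998, or 0.203 without the 4 libraries of low correlation.

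Glutathione transferase Gsta3 and carbonyl reductase Cbr1, both NRF2 targets, were the listed NRF2 genes with the smallest p of the difference. Gsta3 had effects of 0.51 ± 0.21 at 24 h and -0.27 ± 0.17 at 72 h, and Cbr1 0.51 ± 0.25 and -0.50 ± 0.21. Among glycolytic enzymes, Ldha, lactate dehydrogenase A, had effects of 0.55 and -0.37 with all libraries and 0.35 and 0.03 without the 4. Its negative 72 h effect thus rests on the low libraries of UNx animals 1 and 2, and none of these differences passed the test.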
